A study of Mus musculus with 20 samples.

Results

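The 29 genes described here carry the liver's cholesterol economy. They were listed by name from the 53028 Ensembl genes of the deposited count table, with earlier results of these data known. Of them, 17 encode enzymes of cholesterol synthesis and 4 encode the transcription factor SREBP2 or its regulators. Another 4 belong to the LXR receptor and its export targets, and 4 act in uptake, intracellular transfer or esterification. In livers of mice treated with an antisense LNA (an oligonucleotide stabilised by locked nucleic acid) against SNORA73, 0 of the 29 passed the threshold for a change relative to the GFP LNA, in total RNA or in polysome RNA (n = 5 mice per group). So few genes passed at all (0.0303% of those tested in total RNA and 0.0153% in polysome RNA) that a count of 0 does not set these 29 apart. The levels of the synthesis enzymes nevertheless varied widely between mice of the same group. A control liver, mouse 9, had the highest level of 10 of the 17 enzymes in both RNAs. Relative to total RNA, Abca1, Hmgcs1, Hsd17b7, Idi1, Msmo1 and Sc5d were lower and Pmvk and Nr1h3 higher in polysomes in both groups. The share of members so called in controls was near that of all genes tested, 17.3% of which were higher and 19.3% lower.

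Cholesterol is built from acetyl-CoA through mevalonate, isoprenoid diphosphates, squalene and lanosterol. When sterols in the endoplasmic reticulum are low, the escort protein SCAP carries SREBP2 to the Golgi, where it is cleaved and freed to activate the synthesis genes, and when sterols are plentiful the INSIG proteins hold SCAP and SREBP2 back. Oxysterols formed from excess cholesterol activate LXR, which in the liver raises the exporters ABCG5 and ABCG8, pumps that move sterols into bile, and ABCA1, which loads cholesterol onto nascent high-density lipoprotein. SNORA73 is a pair of box H/ACA small nucleolar RNAs made from introns of Snhg3, and the study asked how its loss changes metabolism and ribosome production.

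Male C57BL/6J mice on chow received LNAs against GFP, a sequence that mice lack, or against SNORA73, at 3 mg/kg by intraperitoneal injection every other day for 3 injections. They were 8 weeks old at the start and were killed 2 days after the last injection. For the mice whose liver polysomes were profiled, the methods give an older age, and a cycloheximide injection shortly before death. The sources do not say which age the sequenced livers had. The target is spelled Snora37 in the sample labels, whereas the design text names SNORA73. Mice 1, 2, 3, 8 and 9 received the GFP LNA and mice 4, 6, 10, 11 and 12 the SNORA73 LNA, and values by mouse are given in these orders throughout. Each mouse gave a total (input) RNA library and a library of RNA recovered from polysome fractions, 20 libraries in all. The livers are whole tissue, so fewer cells of a type and less RNA per cell cannot be told apart.

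The total RNA libraries held 20005389 to 42023390 estimated counts each and the polysome libraries 14852951 to 33824659. The level of the target could not be read, because Snora73a had at most 2 and Snora73b at most 4 counts in any polyA-selected library. Hepatocyte markers (Alb, Ttr, Apoa1, Serpina1c, Cps1 and Hpd) were all present, with a summed level of 37500 to 63900 CPM (counts per 1000000 of the library) with GFP LNA and 40400 to 65900 with SNORA73 LNA in total RNA. The study left out 1 mouse of each group that did not cluster with its group, without naming it. The choice of mice nearest to its published table leaves out mice 9 and 10. Because that exclusion was made on the outcome, all 10 mice are used here, and the members are also counted over the other 8 mice, with values for some of them. Levels are CPM scaled by TMM factors (trimmed mean of M values) within each RNA. They can be compared between mice, not between genes, since transcript lengths were not used here.

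None of the 17 synthesis enzymes passed the threshold in total RNA or in polysome RNA. All 29 members had enough counts to be tested in every comparison. The rule for a call was a log2 fold change of at least 0.5 (higher) or under 0 (lower) at a false discovery rate (FDR) under 0.05 in edgeR's quasi-likelihood test. Of the enzymes, 14 had a log2 fold change below 0 and 3 above, with a median of -0.14. In total RNA, Sqle, encoding squalene epoxidase, a rate-limiting enzyme of the late pathway (chr15:59315092-59331193), had 35.0, 51.2, 70.7, 57.0 and 120.0 CPM with GFP LNA and 57.0, 46.6, 107, 46.3 and 51.7 CPM with SNORA73 LNA. The groups overlapped throughout, and the highest value of each group, in mice 9 and 10, stood well above the other 4. Its log2 fold change was -0.12 (SE 0.32, 95% interval -0.80 to 0.57, FDR 0.95). In polysome RNA, Sqle had 34.8, 39.1, 61.0, 54.1 and 116 CPM against 43.5, 39.7, 103, 37.0 and 36.9 CPM, with the same 2 mice on top. The log2 fold change there was -0.23 (SE 0.36, FDR 0.826). Leaving out single mice moved the log2 fold change of Sqle between -0.41 and 0.19 in total RNA and between -0.63 and 0.16 in polysomes, the upper ends being without mouse 9 and the lower ends without mouse 10. Without both it was -0.09 in total RNA (SE 0.18) and -0.26 in polysomes (SE 0.18).

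Hmgcs1 encodes the cytosolic synthase that makes HMG-CoA. It had 301, 480.4, 469, 434 and 776 CPM with GFP LNA in total RNA and 375, 209, 599, 379.7 and 376 CPM with SNORA73 LNA. Only mouse 10 of the SNORA73 LNA group exceeded the GFP LNA median of 469, and the log2 fold change of -0.34 had an SE of 0.27 (FDR 0.783). In polysome RNA the values of Hmgcs1 were 128, 183, 208, 163 and 359.6 CPM against 156, 184, 244, 128 and 102 CPM (log2 fold change -0.35, SE 0.28, FDR 0.627). Idi1, the isomerase of isopentenyl diphosphate, had 301, 412, 444, 424 and 473 CPM against 333, 264, 555, 288 and 327 CPM in total RNA, a log2 fold change of -0.22 (SE 0.20, FDR 0.814). Apart from mouse 10, every SNORA73 LNA liver lay below the 4 highest control livers. In polysome RNA, Idi1 had 145, 207, 247, 185 and 253 CPM against 175, 178, 245, 97.3 and 128 CPM (log2 fold change -0.34, SE 0.23, FDR 0.567). Without mice 9 and 10 the total RNA log2 fold change of Idi1 was -0.38 (unadjusted p = 0.0146 and FDR 0.275 from edgeR).

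The enzymes that came nearest to the threshold did so in polysome RNA. Acat2, the cytosolic thiolase of the first step, had 68.2, 94.3, 85.7, 103 and 86.4 CPM with GFP LNA and 69.3, 68.7, 60.2, 60.8 and 85.9 CPM with SNORA73 LNA in polysomes. The SNORA73 LNA livers filled the lower end of a shared range (log2 fold change -0.34, SE 0.14, unadjusted p = 0.0321 and FDR 0.323 from edgeR). Over the 8 mice the value was -0.29 (unadjusted p = 0.0987 from edgeR). In total RNA the values of Acat2 were 70.8, 91.9, 84.4, 85.7 and 88.3 CPM against 72.4, 86.4, 63.4, 60.8 and 82.6 CPM (log2 fold change -0.20, SE 0.12, FDR 0.698). Counts of Acat2 were not whole numbers in any of the 20 libraries, which arises where reads are divided among transcripts, so its level is uncertain. The same limit applies to Fdps, Srebf2, Scarb1 and Soat2, whose counts were also not whole in any of the 20 libraries. Fdft1, squalene synthase, had 118, 200.5, 197, 159 and 242 CPM against 152, 122, 154, 137 and 136 CPM in polysomes, where every control except mouse 1, the lowest liver of all, was above the SNORA73 LNA range. Its log2 fold change was -0.39 (SE 0.17, unadjusted p = 0.044 and FDR 0.36 from edgeR), and over the 8 mice -0.29 (unadjusted p = 0.112). In total RNA, Fdft1 had 104, 157, 169.9, 140.2 and 205 CPM against 142, 130.2, 146, 123 and 136 CPM (log2 fold change -0.20, SE 0.15, FDR 0.78). For the remaining enzymes (Mvk, Pmvk, Mvd, Fdps, Lss, Tm7sf2, Msmo1, Nsdhl, Hsd17b7, Ebp, Sc5d and Dhcr7), log2 fold changes ran from -0.26 (Hsd17b7) to 0.12 (Mvk) in total RNA and from -0.42 (Mvd) to 0.07 (Ebp) in polysome RNA.

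**Figure D1:**
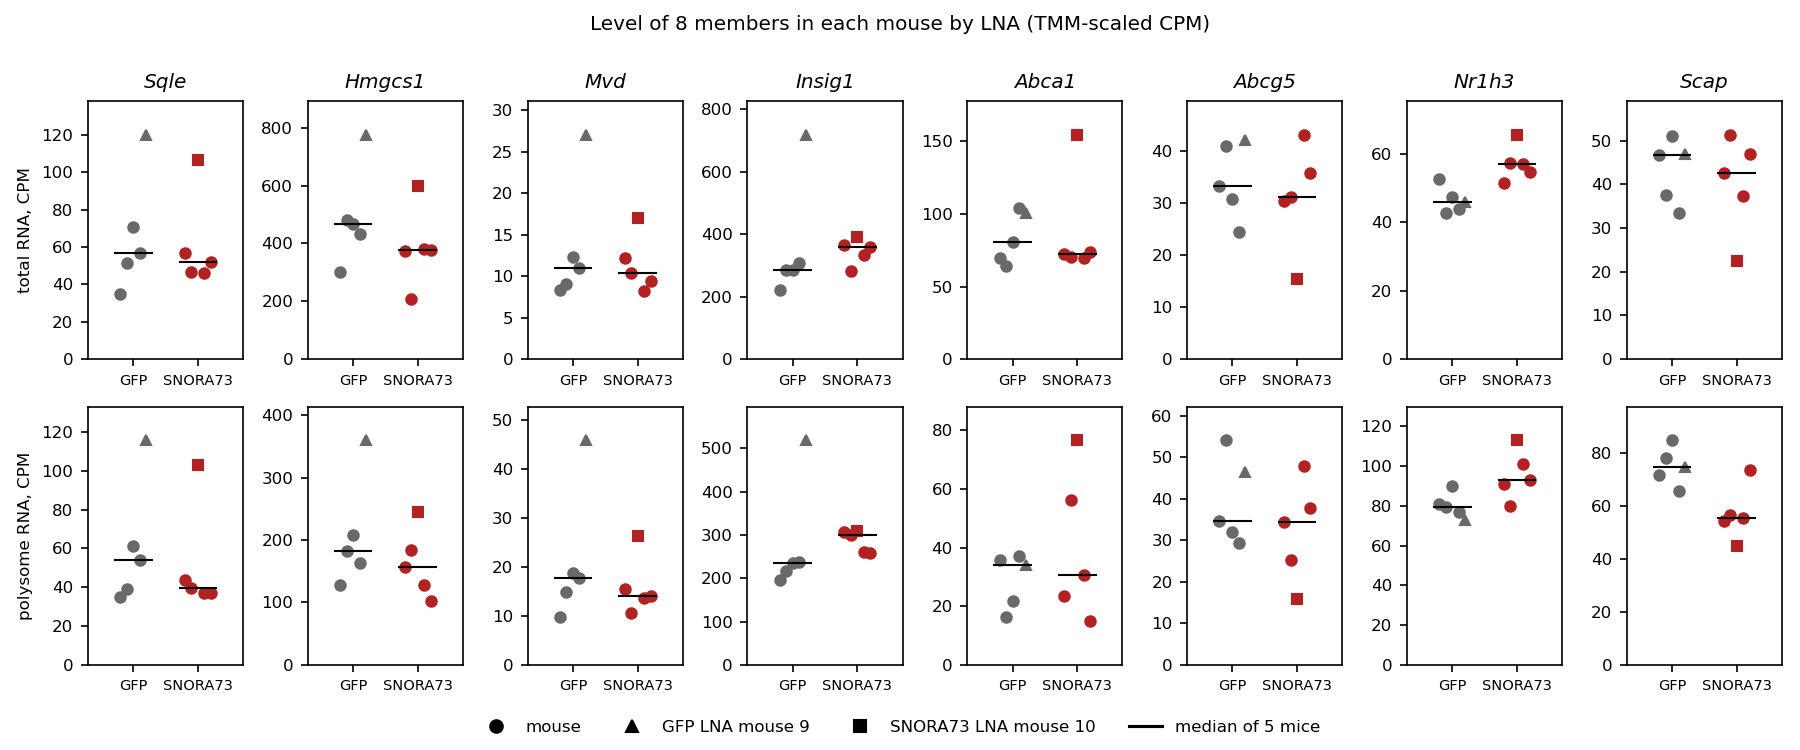
TMM-scaled CPM (vertical axes, linear and starting at 0) of 8 members in total RNA (upper row) and polysome RNA (lower row), 1 point per mouse, with the median of 5 mice as a line. Mouse 9 (triangle) is the highest GFP LNA liver for Sqle, Hmgcs1, Mvd and Insig1 in both RNAs, and mouse 10 (square) the highest SNORA73 LNA liver for Sqle, Hmgcs1, Mvd and Abca1 and the lowest for Abcg5 and Scap.

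The enzymes spread widely within groups. The median SD within a group of the 29 members was 0.341 on the log2 scale in total RNA, against 0.247 over all genes tested, and 0.375 against 0.339 in polysome RNA. Mouse 9 had the highest level of 11 of the 17 enzymes in total RNA and of 11 of 17 in polysome RNA. Over all genes tested it was highest for 14.2% and 10.1%. Mvd, the decarboxylase that ends the mevalonate steps, had 8.32, 9.09, 12.3, 10.9 and 27.1 CPM in the control livers in total RNA, so that mouse 9 stood 2.70-fold above the median of the other 4. In polysome RNA the same liver stood 2.80-fold above (45.8 CPM, the other 4 between 9.78 and 18.8). The corresponding folds in total RNA were 2.22 for Sqle, 2.13 for Msmo1 (a methylsterol oxidase), 1.97 for Hsd17b7 (a ketosteroid reductase), 1.75 for Fdps (farnesyl diphosphate synthase), 1.72 for Hmgcs1 and 1.64 for Lss (lanosterol synthase). Not all enzymes followed. Tm7sf2, a sterol reductase, was at 0.698 times the median of the other control livers in mouse 9, and Ebp, a sterol isomerase, at 0.884 times. Mouse 1, also a control, had the lowest level of 7 of the 17 enzymes in total RNA, and mouse 11 of 6 of 17 in polysome RNA. The shares of all genes lowest in these mice are not set beside these counts, so they do not set the enzymes apart.

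Mouse 10 of the SNORA73 LNA group shared part of this pattern. Its folds over the median of the other 4 livers of its group in total RNA were 2.17 for Sqle, 1.81 for Idi1 and 1.71 for Mvd. They were 1.60 for Hmgcs1 and 1.55 for Hsd17b7. Sc5d, the lathosterol desaturase, was at 0.651 times and Tm7sf2 at 0.566 times that median. Tm7sf2 was low in mouse 9 too, whereas Sc5d was at 1.27 times the median of the other controls there. Fdps, high in mouse 9, was at 0.90 times in mouse 10, and Idi1 was at 1.13 times in mouse 9. Markers of some other cell types were highest in these livers. In total RNA, the 6 Kupffer cell markers summed to 122 to 195 CPM with GFP LNA, with mouse 9 highest, and to 112 to 216 CPM with SNORA73 LNA, with mouse 10 highest. The 6 cholangiocyte markers ranged from 18.4 to 35 CPM and from 12.5 to 54.7 CPM, again highest in mice 9 and 10, and the hepatocyte markers were lowest in these 2 livers of their groups. The 6 neutrophil markers summed to 2.87 to 7.96 CPM and 1.56 to 14.8 CPM, with 6.83 in mouse 9 and 14.8 in mouse 10, and 2 of the 6 were at 0 in at least 1 library. The 6 stellate cell markers did not share this pattern, being highest among controls in mouse 9 (308 CPM, range 231 to 308) and lowest of its group in mouse 10 (205 CPM, range 205 to 298). The 6 markers of sinusoidal endothelium summed to 94.3 to 117 CPM with GFP LNA, highest in mouse 9, and to 111 to 131 CPM with SNORA73 LNA, with 124 in mouse 10. In polysome RNA the endothelial sums did not overlap between the LNA groups, at 83.5 to 94.1 CPM and 102 to 114 CPM, whereas in total RNA they overlapped. Of single genes tested in polysome RNA, the groups did not overlap for 3.2%. The part of other cell types in the levels of the enzymes was not tested.

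**Figure D2:**
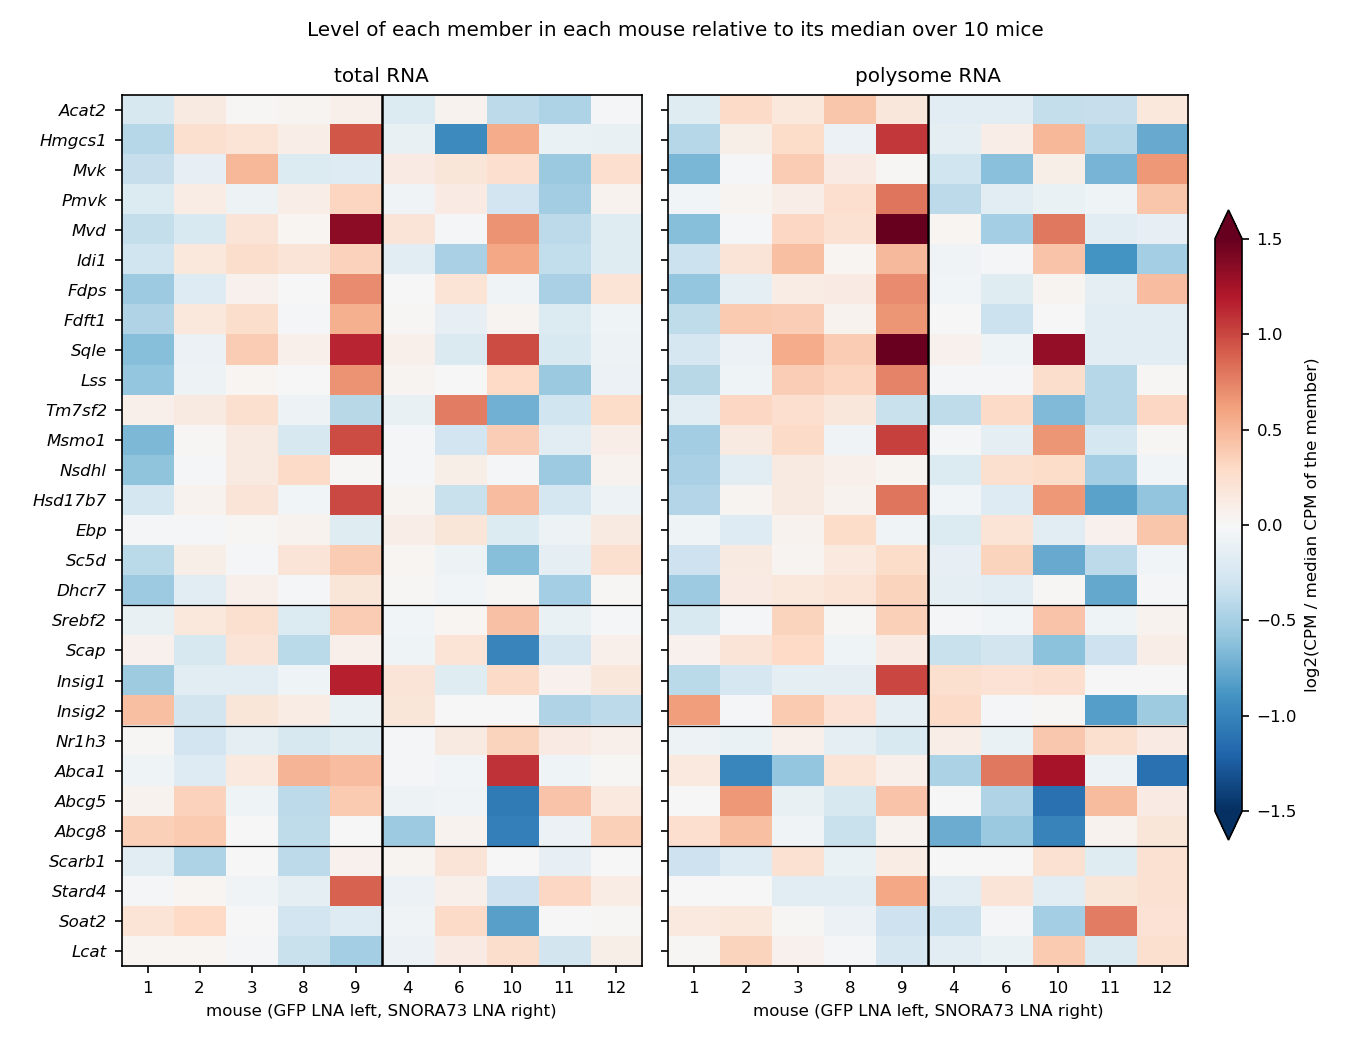
Level of each of the 29 members (rows, grouped by role) in each mouse (columns, GFP LNA left of the line, SNORA73 LNA right), as log2 of the CPM over the member's median of 10 mice, in total and polysome RNA. The column of mouse 9 is red for most synthesis enzymes and Insig1. That of mouse 10 is red for Sqle, Idi1, Mvd, Hmgcs1, Hsd17b7 and Abca1, among others. It is blue for Tm7sf2, Sc5d, Scap, Abcg5 and Abcg8, among others.

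The sequences upstream of several members that were high in mouse 9 or 10 are shown because these promoters are where SREBP2 and its partners are known to act. RefSeq start site windows (300 bases, GRCm38.p6) were at hand for 23 of the 29 members. The 250 bases before the start are printed 5′ to 3′ in the direction of the gene, with capitals for CCAAT (the NF-Y box), GGGCGG (the GC box bound by Sp1), TCACNCCAC (a sterol regulatory element core) and CACGTG (the E-box), each searched on both strands. The stretches are chr13:119690101-119690350 (plus strand), chr13:8885356-8885605 (plus), chr8:122443423-122443672 (minus), chr8:64733579-64733828 (minus), chr5:28071162-28071411 (plus) and, for comparison, chr4:53159896-53160145 (minus), in this order.
Hmgcs1: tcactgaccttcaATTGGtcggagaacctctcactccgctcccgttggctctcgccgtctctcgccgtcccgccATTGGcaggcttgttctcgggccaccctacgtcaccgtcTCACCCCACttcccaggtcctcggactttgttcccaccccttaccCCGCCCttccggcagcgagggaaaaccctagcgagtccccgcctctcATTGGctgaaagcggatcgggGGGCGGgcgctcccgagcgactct
Idi1: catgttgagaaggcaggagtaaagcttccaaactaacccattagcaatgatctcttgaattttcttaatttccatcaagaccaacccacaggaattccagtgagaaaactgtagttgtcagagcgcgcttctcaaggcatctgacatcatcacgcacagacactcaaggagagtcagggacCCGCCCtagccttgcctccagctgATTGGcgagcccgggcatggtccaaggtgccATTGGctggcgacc
Mvd: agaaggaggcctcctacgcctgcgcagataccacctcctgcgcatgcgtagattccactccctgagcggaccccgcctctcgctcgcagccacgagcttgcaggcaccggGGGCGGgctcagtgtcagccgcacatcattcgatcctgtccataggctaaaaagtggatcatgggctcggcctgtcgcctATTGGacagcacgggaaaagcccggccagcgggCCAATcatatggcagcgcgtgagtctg
Msmo1: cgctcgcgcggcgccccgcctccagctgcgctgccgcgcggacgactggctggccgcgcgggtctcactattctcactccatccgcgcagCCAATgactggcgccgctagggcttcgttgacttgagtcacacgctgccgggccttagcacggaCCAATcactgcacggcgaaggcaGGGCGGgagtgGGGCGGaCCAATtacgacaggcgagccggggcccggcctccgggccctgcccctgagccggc
Insig1: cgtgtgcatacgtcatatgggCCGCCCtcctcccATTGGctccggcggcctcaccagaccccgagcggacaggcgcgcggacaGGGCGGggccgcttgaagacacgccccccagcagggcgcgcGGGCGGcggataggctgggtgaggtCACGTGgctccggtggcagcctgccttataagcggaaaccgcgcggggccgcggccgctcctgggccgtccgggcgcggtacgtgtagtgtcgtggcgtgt
Abca1: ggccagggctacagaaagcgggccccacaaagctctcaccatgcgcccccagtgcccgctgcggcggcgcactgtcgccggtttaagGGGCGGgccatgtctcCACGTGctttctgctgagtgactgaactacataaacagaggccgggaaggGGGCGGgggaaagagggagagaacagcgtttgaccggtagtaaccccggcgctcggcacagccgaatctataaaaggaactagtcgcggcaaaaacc

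The Hmgcs1 stretch held 3 CCAAT boxes, 2 GC boxes and the sterol element, which lay 137 bases before the start as TCACCCCAC. It was the only member with that core in its window, which 1.24% of all 32851 windows of the table held. CCAAT boxes numbered 2 in the stretches of Idi1 and Mvd, 3 in Msmo1, 1 in Insig1 and 0 in Abca1. Over the windows of 300 bases, 19 of the 23 members held CCAAT, as did 37.4% of all windows and 43% of the 9828 genes tested in total RNA that have a window. The GC box was in 18 of 23 members (35.7% of windows and 65.9% of these genes) and the E-box in 6 of 23 (7.15% and 11.7%). Some genes have several windows, so the share of genes is higher than that of windows. These are letter matches, and binding was not measured.

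The genes of SREBP2 and its regulators did not pass the threshold either, and the sign of Insig1 depended on the mice included. Srebf2, which encodes SREBP2, had 21.8, 26.3, 27.9, 20.6 and 30.8 CPM with GFP LNA and 23.0, 24.1, 32.1, 22.0 and 23.2 CPM with SNORA73 LNA in total RNA (log2 fold change -0.04, SE 0.14, 95% interval -0.33 to 0.26, FDR 0.971). In polysome RNA it had 18.1, 21.1, 26.9, 21.5 and 27.3 CPM against 20.9, 20.8, 28.6, 20.4 and 22.1 CPM (log2 fold change -0.03, SE 0.15, FDR 0.959). Mouse 10 was the highest of its group in both RNAs, with the other 4 close together. Insig1, itself a target of SREBP2 (chr5:28071412-28078662), had 221, 285, 287, 306 and 719 CPM against 367, 282, 392, 334 and 359.7 CPM in total RNA. Apart from mouse 6, the SNORA73 LNA livers lay above the 4 lower controls, and all 5 lay far below mouse 9, and the log2 fold change was -0.07 (SE 0.27, FDR 0.972). In polysome RNA, Insig1 had 197, 217, 235, 237 and 519 CPM against 307, 301, 308, 261 and 258 CPM (log2 fold change 0.03, SE 0.24, FDR 0.972). All 5 SNORA73 LNA livers were above the 4 other controls and below mouse 9. Without mice 9 and 10 total RNA gave a log2 fold change of 0.29 for Insig1 (SE 0.12, unadjusted p = 0.0404 and FDR 0.386 from edgeR) and polysome RNA 0.36 (SE 0.13, unadjusted p = 0.0167 and FDR 0.264 from edgeR). In those 8 mice the groups did not overlap in polysome RNA for 1 of the 29 members, Insig1, as for 8.42% of all genes tested, and in total RNA for 0 of 29, against 7.36%.

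Insig2, whose liver transcript is known to fall with insulin, had 300.5, 182, 249.5, 238 and 206 CPM with GFP LNA and 250.1, 221, 220.2, 162 and 168 CPM with SNORA73 LNA in total RNA (log2 fold change -0.20, SE 0.16, FDR 0.781). In polysome RNA it had 309.8, 198, 264, 232 and 181 CPM against 245, 196, 202, 113 and 139 CPM. Mice 11 and 12 were the lowest of the 10 in both RNAs, and the polysome log2 fold change of -0.40 (SE 0.21) had an FDR of 0.433. Over the 8 mice it was -0.53 (unadjusted p = 0.0451 and FDR 0.347 from edgeR). Scap, the escort protein (chr9:110333288-110384949), had 71.9, 78.3, 84.9, 65.7 and 74.9 CPM against 54.5, 56.8, 45.0, 55.6 and 73.7 CPM in polysome RNA. With the exception of mouse 12, the SNORA73 LNA livers lay below all controls, and this was the smallest p among the members in polysome RNA (log2 fold change -0.40, SE 0.14, unadjusted p = 0.0137 and FDR 0.26 from edgeR). Over the 8 mice it was -0.31 (unadjusted p = 0.0534 from edgeR). In total RNA, Scap had 46.7, 37.6, 51.0, 33.5 and 46.9 CPM against 42.5, 51.4, 22.4, 37.4 and 46.9 CPM, with mouse 10 far below the rest (log2 fold change -0.10, SE 0.20, FDR 0.919).

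Nr1h3, which encodes LXR alpha (chr2:91184061-91202829), was the only member with an unadjusted p under 0.05 in total RNA. It had 52.8, 42.8, 47.5, 44.1 and 46.0 CPM with GFP LNA and 51.5, 57.4, 65.7, 57.0 and 54.8 CPM with SNORA73 LNA. The groups overlapped through mice 1 and 4, and the log2 fold change was 0.30 (SE 0.09, 95% interval 0.09 to 0.50, unadjusted p = 0.00777 and FDR 0.378 from edgeR). In polysome RNA it had 81.1, 79.4, 89.9, 76.9 and 72.6 CPM against 91.1, 80.0, 113, 101 and 92.8 CPM, higher in 4 of 5 SNORA73 LNA livers than in every control (log2 fold change 0.26, SE 0.12, FDR 0.388). Over the 18 other settings tried, the total RNA log2 fold change of Nr1h3 ran from 0.15 to 0.34 and the FDR from 0.17 to 0.709. The lowest value came from scaling by library totals. Nr1h3 overlaps Acp2 in the annotation, and its counts were whole in all libraries.

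The LXR target Abca1 (chr4:53030789-53159988) had 69.9, 64.0, 80.4, 104 and 101 CPM with GFP LNA and 72.1, 70.6, 154, 69.9 and 73.6 CPM with SNORA73 LNA in total RNA (log2 fold change 0.07, SE 0.23, FDR 0.961). Mouse 10 alone stood out, at 2.17-fold the median of the other 4. In polysome RNA, Abca1 had 35.9, 16.4, 21.7, 37.2 and 34.1 CPM against 23.3, 56.2, 76.5, 30.7 and 14.9 CPM, the widest range among the members (5.14-fold from lowest to highest), with a log2 fold change of 0.48 (SE 0.38, 95% interval -0.35 to 1.30, FDR 0.632). Without mice 9 and 10 its log2 fold change was -0.15 (total RNA) and 0.18 (polysome RNA).

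Abcg5 and Abcg8 encode the partners that form the sterol pump of the bile canaliculus and lie head to head on chromosome 17 (84658174 to 84683011 and 84676302 to 84700333), where their annotated spans overlap on opposite strands. Whether counting used the strand is not stated, and the counts of both genes were whole in all libraries. Abcg5 had 33.2, 40.8, 30.7, 24.4 and 42.1 CPM against 30.4, 31.1, 15.4, 43.1 and 35.6 CPM in total RNA (log2 fold change -0.14, SE 0.23, FDR 0.912). In polysome RNA the values were 34.8, 54.1, 32.0, 29.4 and 46.4 CPM against 34.4, 25.3, 16.0, 48.0 and 37.7 CPM (log2 fold change -0.29, SE 0.26, FDR 0.678). Mouse 10, in which Abca1 was highest, had the lowest Abcg5 of the 10 livers in both RNAs. Abcg8 had 37.7, 38.5, 29.6, 22.6 and 29.2 CPM against 20.1, 30.3, 14.4, 27.6 and 37.7 CPM in total RNA (log2 fold change -0.27, SE 0.23, FDR 0.799). In polysome RNA it had 36.7, 42.0, 29.8, 24.5 and 31.9 CPM against 18.3, 21.0, 15.4, 31.9 and 35.0 CPM (log2 fold change -0.44, SE 0.22, unadjusted p = 0.0707 and FDR 0.417 from edgeR). Mouse 10 was again the lowest, so the partners were low together there.

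None of the 4 genes of uptake, transfer and esterification passed the threshold. Scarb1, the receptor for selective uptake from high-density lipoprotein, had 55.4, 44.6, 61.7, 47.0 and 64.4 CPM with GFP LNA and 63.3, 70.5, 61.7, 56.8 and 62.0 CPM with SNORA73 LNA in total RNA (log2 fold change 0.20, SE 0.12, FDR 0.687), and over the 8 mice 0.28 (unadjusted p = 0.0409 and FDR 0.386 from edgeR). In polysome RNA it had 47.9, 51.8, 69.7, 55.5 and 64.1 CPM against 59.4, 59.3, 69.7, 52.2 and 69.8 CPM (log2 fold change 0.10, SE 0.14, FDR 0.79). The low end of the range in total RNA was held by control mice 2 and 8. Stard4, a sterol transfer protein and SREBP2 target, had 80.8, 83.6, 79.0, 74.9 and 152 CPM against 77.2, 86.5, 66.1, 102 and 88.5 CPM in total RNA (log2 fold change -0.16, SE 0.19, FDR 0.87). Mouse 9 was at 1.90-fold the median of the other controls, as it was high for Insig1. In polysome RNA, Stard4 had 65.3, 66.3, 58.7, 59.1 and 98.8 CPM against 59.2, 75.2, 58.4, 74.9 and 77.2 CPM (log2 fold change -0.01, SE 0.16, FDR 0.981). Soat2, the hepatocyte enzyme that esterifies cholesterol for storage and secretion, had 14.9, 15.8, 13.0, 10.6 and 11.3 CPM against 12.4, 15.7, 7.35, 12.8 and 13.0 CPM in total RNA (log2 fold change -0.09, SE 0.18, FDR 0.922). In polysome RNA it had 17.2, 17.4, 15.8, 14.7 and 12.6 CPM against 12.5, 15.4, 10.97, 26.5 and 18.2 CPM (log2 fold change 0.10, SE 0.21, FDR 0.875). Lcat, the secreted enzyme that esterifies cholesterol on lipoproteins, had log2 fold changes of 0.18 in total RNA (SE 0.14) and 0.01 in polysome RNA (SE 0.16).

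Counted together, 0 of 29 members passed the rule in total RNA with edgeR, limma-voom or DESeq2, where 0.0303% of 13195 genes tested did with edgeR. At an unadjusted p under 0.05 in edgeR there was 1 member, against 8.65% of all genes. The median log2 fold change of the 29 was -0.10 (all genes 0.01), with 7 members above 0 and 22 below. Every one of the 29 intervals lay within -1 to 1, and 10 within -0.5 to 0.5, so a smaller difference could not be bounded for the other 19. In polysome RNA 0 of 29 passed with any of the 3 tools, against 0.0153% of 13060 genes in edgeR, and 3 (Scap, Acat2 and Fdft1) had an unadjusted p under 0.05, against 13.4%. The median there was -0.22 (all genes -0.01), with 8 members above 0 and 21 below, and 27 intervals lay within -1 to 1. The exceptions were Mvd and Abca1. The groups did not overlap for 0 of 29 members in either RNA, against 1.8% of genes in total RNA and 3.2% in polysome RNA. These shares place the members at or under the level of all genes.

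**Figure D3:**
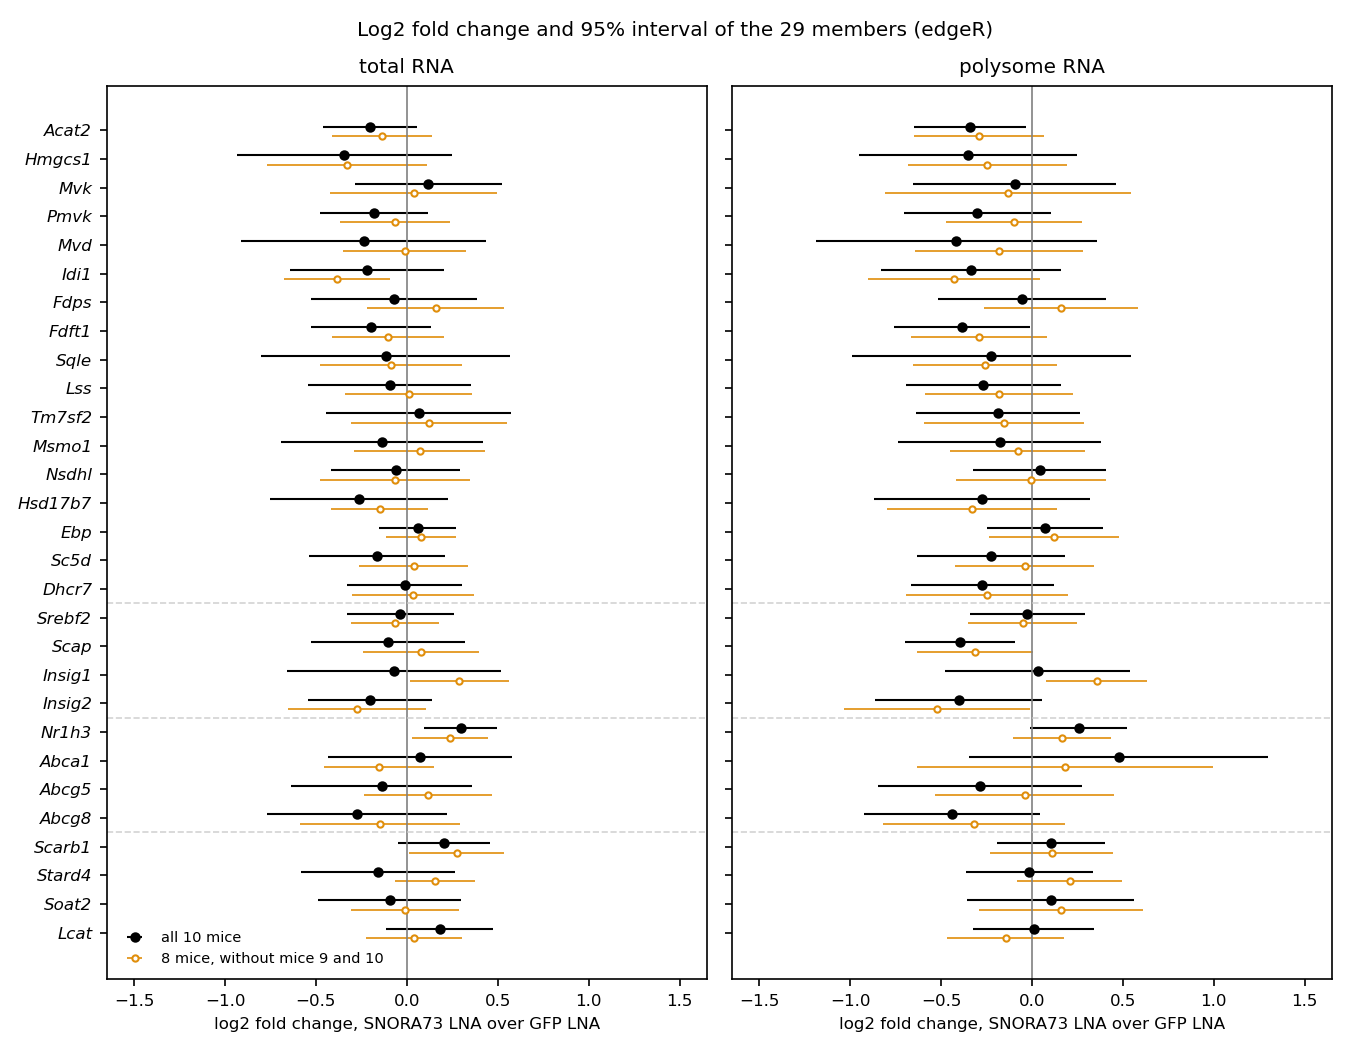
Log2 fold change (horizontal axis, SNORA73 LNA over GFP LNA) and 95% interval from edgeR for the 29 members in total RNA (left) and polysome RNA (right), over all 10 mice (black) and over the 8 mice without mice 9 and 10 (open orange). For all 10 mice the interval excludes 0 only for Nr1h3 in total RNA and for Acat2, Fdft1 and Scap in polysome RNA.

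The count of members below 0 depended on the mice in total RNA and on the scaling in both RNAs. In polysome RNA it was 21 with all mice and with the 8 mice, although 4 members changed sign. Over the 8 mice without mice 9 and 10, 0 of 29 members passed in either RNA with edgeR, where 0.714% of genes did in total RNA and 0.242% in polysome RNA. At an unadjusted p under 0.05 there were then 4 members in total RNA (Idi1, Insig1, Nr1h3 and Scarb1), against 12.1% of genes, and 2 in polysome RNA (Insig1 and Insig2), against 14%. The log2 fold change took the other sign for 10 members in total RNA (Fdps, Lss, Msmo1, Sc5d, Dhcr7, Scap, Insig1, Abca1, Abcg5 and Stard4) and for 4 in polysome RNA. In total RNA 15 members were then above 0 and 14 below (median 0.01), and in polysome RNA 8 and 21 (median -0.13). Scaling by library totals in place of TMM moved the median over all genes tested to -0.14 (total) and -0.17 (polysome) on the log2 scale. With that scaling 26 of the 29 members were below 0 in total RNA and 27 in polysome RNA. TMM factors were 1.03 to 1.07 in the control and 0.882 to 0.998 in the SNORA73 LNA libraries of total RNA.

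Whether the LNA acted differently on polysome and total RNA was tested as an interaction over all 20 libraries. It passed for 0 of 29 members (0.00725% of 13795 genes) in edgeR, as in limma-voom and DESeq2, and 0 had an unadjusted p under 0.05 (2.91% of genes). The smallest p belonged to Scap, the escort of SREBP2, with an interaction of -0.29 on the log2 scale (SE 0.25, 95% interval -0.80 to 0.22), to Dhcr7, the reductase of the last step, with -0.26 (SE 0.24, interval -0.76 to 0.24), and to Abca1, with 0.41 (SE 0.49, interval -0.62 to 1.43). The log2 ratio of polysome to total CPM of Dhcr7 was -0.17, 0.09, -0.15, 0.01 and -0.01 in the control livers and -0.35, -0.30, -0.18, -0.47 and -0.25 in the SNORA73 LNA livers. All 5 treated livers were below all 5 controls in this ratio, by a margin of less than 0.01 between mice 10 and 1. These ratios use TMM factors set over all 20 libraries, so they differ slightly from ratios of the levels scaled within each RNA. Those levels were 46.5, 73.9, 75.6, 77.7 and 85.5 CPM against 61.3, 60.3, 68.5, 39.9 and 66.9 CPM in polysomes, and 51.7, 67.1, 79.7, 74.9 and 86.0 CPM against 76.5, 73.6, 76.4, 53.2 and 76.5 CPM in total RNA. With each mouse as a replicate block, which uses the pairing of the libraries, the interaction of Dhcr7 was -0.26 (SE 0.10, unadjusted p = 0.0207 and FDR 0.532 from edgeR). The ratio also did not overlap for Fdft1, so that this held for 2 of 29 members, against 1.76% of 13037 genes. Dhcr7 was the only member with an unadjusted p under 0.05 in the blocked model (8.03% of genes), in which 24 of the 29 intervals lay within -0.5 to 0.5, against 4 without the block.

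Differences past the threshold lay between polysome and total RNA within each group. This comparison measures the share of an mRNA in polysomes relative to other mRNAs, and a call needed an FDR under 0.05 and a log2 difference of at least 0.5. In control livers 6 of 29 members were higher in polysomes (17.3% of 13283 genes) and 6 lower (19.3%), shares near those of all genes. The synthesis enzymes fell on both sides. Hmgcs1 was lower by a log2 difference of -1.28 (SE 0.28, FDR 0.00264), Hsd17b7 by -1.32 (SE 0.25, FDR 0.00101), Idi1 by -1.03 (SE 0.16, FDR 0.000219), Msmo1 by -0.84 and Sc5d by -0.70. Pmvk, the phosphomevalonate kinase, was higher by 0.96 (SE 0.16, FDR 0.000392), Tm7sf2 by 0.82 and Mvk, the mevalonate kinase, by 0.58. Tm7sf2 and Msmo1, which act in successive steps, differed in sign. Of the other roles, Abca1 was lower, and Scap (0.75), Nr1h3 (0.73) and Lcat (0.59) were higher.

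The ratio of Abca1 was below 0 in every liver, with log2 values of -0.98, -2.01, -1.96, -1.52 and -1.57 in controls and -1.66, -0.35, -1.03, -1.24 and -2.37 with SNORA73 LNA. The fitted log2 difference was -1.57 (SE 0.23, FDR 0.000128) in controls and -1.15 (SE 0.40, FDR 0.0398) with SNORA73 LNA. Nr1h3 had log2 ratios of 0.60, 0.84, 0.85, 0.76 and 0.65 in controls and 0.79, 0.46, 0.76, 0.78 and 0.70 with SNORA73 LNA, above 0 in every liver, and its p was the smallest of the members in both groups (log2 difference 0.73, SE 0.09, FDR 2.97e-05, and 0.71, SE 0.12, FDR 0.00125). This receptor gene and its target Abca1 thus lay on opposite sides of 0. For Idi1 the log2 ratios were -1.07, -1.05, -0.92, -1.24 and -0.91 in controls and -0.96, -0.59, -1.20, -1.61 and -1.41 with SNORA73 LNA. Hsd17b7 had -1.38, -1.26, -1.33, -1.14 and -1.39 in controls and -1.31, -1.07, -1.03, -1.78 and -1.77 with SNORA73 LNA, from CPM of 25.0, 31.2, 34.4, 29.3 and 59.6 against 30.8, 23.8, 41.5, 25.1 and 28.5 in total RNA. Even mouse 9, where the Hsd17b7 level was the highest of all livers, had a ratio like the others. Pmvk had 0.95, 0.68, 0.91, 0.91 and 1.28 in controls and 0.44, 0.51, 0.97, 1.21 and 1.10 with SNORA73 LNA.

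With SNORA73 LNA 2 members were higher in polysomes (Pmvk and Nr1h3, against 14.6% of 13063 genes) and 6 lower (14%). The 6 lower were the same genes as in controls, Hmgcs1 (-1.28), Hsd17b7 (-1.32), Idi1 (-1.13), Msmo1 (-0.87), Sc5d (-0.75) and Abca1 (-1.15). With the mouse as a replicate block, 7 members were higher in controls, Mvd being added, and 4 with SNORA73 LNA, where Tm7sf2 (0.62) and Scap (0.51) were added, and 6 were lower in each group. Of all genes tested, 18.7% were then higher and 21.4% lower in controls, and 16.7% and 17.3% with SNORA73 LNA. More members were called higher in controls, but a difference between the groups was not shown, because the interaction passed for 0 members. Mouse 6 had the ratio nearest 0 of the 5 SNORA73 LNA livers for 8 of the 12 members called in controls, for example Hmgcs1 (-0.20, where the other 4 lay between -1.94 and -1.29). The same held for 54.9% of the 4715 genes called in controls with a ratio in every one of these livers. Some calls were lost when a mouse was left out of the fit without the block. In controls Mvk was not called without mouse 2 (FDR 0.0861), 8 (0.12) or 9 (0.0858), and Msmo1 not without mouse 2 (0.104), 3 (0.107) or 8 (0.0956), all from edgeR. With SNORA73 LNA, Sc5d was not called without mouse 4 (0.0696), 11 (0.0587) or 12 (0.0656), nor Abca1 without mouse 4 (0.107), 11 (0.0966) or 12 (0.0922). These calls were kept with the replicate block and no mouse left out. The FDRs from edgeR were then 0.000175 (Mvk) and 1.41e-07 (Msmo1) in controls, and 0.000492 (Sc5d) and 0.00115 (Abca1) with SNORA73 LNA.

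**Figure D4:**
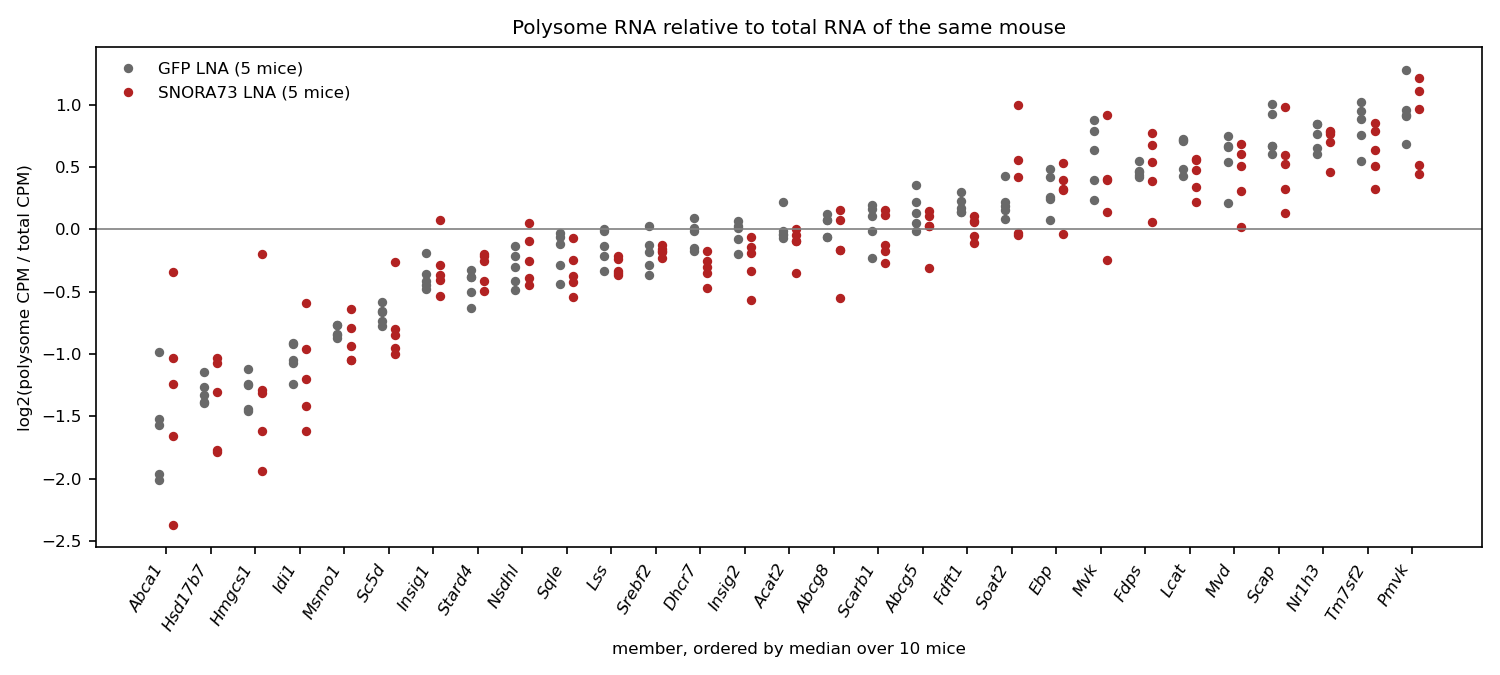
Log2 ratio of polysome to total CPM (vertical axis) of each of the 29 members (horizontal axis, ordered by the median of 10 mice), with the GFP LNA livers in grey and the SNORA73 LNA livers in red, 1 point per mouse. Abca1, Hsd17b7, Hmgcs1, Idi1, Msmo1 and Sc5d are below 0 in all 10 mice, and Pmvk, Tm7sf2, Nr1h3, Scap, Mvd, Lcat and Fdps above 0 in all 10.

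Other genes of the pathway were counted the same way. Of 26 further genes, among them the proteases and degradation factors of the SREBP2 axis, oxysterol and lysosomal sterol handling and the bile acid enzymes, 25 passed the filter on low counts in total RNA. None of the 25 was called in total RNA, in polysome RNA or for the interaction with edgeR, and 1 had an unadjusted p under 0.05, in total RNA. That gene was Mylip, an LXR target whose product degrades lipoprotein receptors, with a log2 fold change of 0.51 (SE 0.16, unadjusted p = 0.00718 and FDR 0.378 from edgeR) in total RNA and 0.18 (SE 0.30) in polysome RNA. Between polysome and total RNA, 2 were higher and 8 lower in controls, and 2 were higher and 9 of 24 lower with SNORA73 LNA, against 17.3% and 19.3% of all genes in controls and 14.6% and 14% with SNORA73 LNA. Mbtps2, a protease that releases SREBP2, was lower in polysomes by a log2 difference of -1.20 (FDR 0.000942) in controls and -1.52 (FDR 0.00597) with SNORA73 LNA, and Cyp7a1, the rate-limiting enzyme of bile acid synthesis, by -1.31 (FDR 0.0265) and -1.15 (FDR 0.0285). Lipa, the lysosomal acid lipase, was lower by -1.07 and -1.14, and Soat1, the more widely expressed esterifying enzyme, by -0.91 and -1.04. Stard3, a sterol transfer protein of late endosomes, was higher by 0.65 and 0.61.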

How the data were processed

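Livers of 10 mice gave a total RNA and a polysome RNA library each. Libraries were polyA-selected and sequenced as paired 100 bp reverse-stranded reads. The authors trimmed with fastp, discarded rRNA reads found by bowtie, quantified transcripts with kallisto (Ensembl) and used tximport for gene totals. The files hold these estimated counts as the authors deposited them, not normalized. The strand option of kallisto is not given in the sources used here. Because kallisto divides reads among transcripts, 16 of the 29 members had counts that were not whole in at least 1 library, and 12 overlap another RefSeq gene.

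Estimated counts were rounded. Symbols were matched for 51903 of 53028 identifiers. A gene was kept when its CPM exceeded 0.5 in 4 or more libraries of a fit. Counts were scaled by TMM and tested with edgeR 4.0.16 (quasi-likelihood, R 4.3.3), with Benjamini-Hochberg adjustment over all genes tested. Total and polysome RNA were fitted apart. The interaction was fitted over 20 libraries, and polysome against total RNA within each group. Library totals of 14852951 to 42023390 counts set the precision. In the LNA comparisons within total and within polysome RNA, p-values measure the spread between mice. The main fits of the interaction and of polysome against total RNA treated the 2 libraries of a mouse as independent. Their p-values therefore ignore the pairing, which the replicate block uses. The mouse number in the labels pairs the 2 libraries of an animal. Deviations from group means correlated by 0.102 to 0.507 between libraries of the same mouse. Compared within the same LNA group, 9 of the 10 correlated best with their own mouse. The exception was mouse 6, at 0.102 with its own polysome library and 0.207 with that of another mouse. The ratios of mouse 6 and the replicate block rest on the pairing given by the labels. Mice 9 and 10 were identified by fitting each of 25 ways to leave out 1 mouse per group with limma and comparing log2 fold changes of 140 genes with the published table.

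Alternatives were limma-voom (limma 3.58.1), DESeq2 1.42.0, its size factors in edgeR, library totals, other count filters, all libraries in 1 fit, each mouse left out, the 8 mice and the mouse as a replicate block. Values by mouse were given for 13 genes picked by role and for the 3 members with the smallest p in each comparison. Other pathway genes could be named if called or with an unadjusted p under 0.01. Between polysome and total RNA only some of those called are named. Mvd, the ratios of Fdft1 and the ratios of mouse 6 were added after their values were seen. The members, gene lists and tests were chosen with earlier results of these data known. Tests were also run on simulated counts. These were drawn independently for each library, so the pairing of libraries and outlying livers were not part of that check. Promoter windows and positions are from RefSeq, GRCm38.p6.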

Additional observations from a re-analysis of the deposited data

Results flagged for a closer look

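In 15 of the 116 groups of 5 mice (29 members, both RNAs, both LNAs), the highest or lowest mouse stood apart from the other 4 by Dixon's criterion on log2 CPM. Chance flags about 1 in 20 groups, and the groups are not independent, because the RNAs come from the same livers and the members are coexpressed.

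Mouse 9 accounted for 4 of the 15, all high. Its Insig1 was 718.7 CPM in total RNA (next control 306) and 518.6 CPM in polysome RNA (next 237), and its Stard4 was 151.7 CPM in total RNA (next 83.6) and 98.76 CPM in polysome RNA (next 66.3). Mouse 10 accounted for 5. Its Sqle was 106.6 CPM in total and 103.2 CPM in polysome RNA, where the next mice of its group had 57.0 and 43.5. Its Srebf2 was 32.1 CPM (next 24.1) and 28.65 CPM (next 22.1), and its Abca1 was 154.5 CPM in total RNA (next 73.6).

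The other 6 were spread over 3 mice. Mouse 11 was low for Dhcr7 at 53.25 CPM in total RNA (next 73.6) and 39.89 CPM in polysome RNA (next 60.3), for Mvk at 7.02 CPM in total RNA (next 11.2) and for Nsdhl, a sterol dehydrogenase, at 44.43 CPM in total RNA (next 63.6). Mouse 1 was low for Dhcr7 at 46.45 CPM in polysome RNA (next 73.9), and mouse 3 was high for Mvk at 14.58 CPM in total RNA (next 9.48).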

How the results depend on the processing

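The count of members called was 0 in total RNA, in polysome RNA and for the interaction under every setting tried, with edgeR, limma-voom and DESeq2. For polysome against total RNA it was 12 in controls (10 to 13 under other settings, 10 to 12 with a mouse left out) and 8 with SNORA73 LNA (6 to 10, and 6 to 8). With the mouse as a replicate block it was 13 and 10. No difference between polysome and total RNA changed sign among the 12 members followed. In controls 147 of 156 repeats kept their call or its absence and 9 lost the call, Msmo1 also with library totals (FDR 0.0512 from edgeR) and DESeq2 (FDR 0.0656). With SNORA73 LNA 148 of 156 were kept, 6 were lost and 2 gained (Tm7sf2 and Scap, with the replicate block). Within controls the 8 mice give the same fit as leaving out mouse 9, and with SNORA73 LNA as leaving out mouse 10. The repeats therefore hold a duplicate, and the loss of Mvk in that fit enters the 9 more than once.

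The sign of the small LNA log2 fold changes was less stable. Of 19 named members, 9 changed sign under at least 1 setting in total RNA and 6 in polysome RNA, none of them called. Over the 8 mice, total RNA gave 0.29 for Insig1, 0.15 for Stard4, -0.15 for Abca1, 0.12 for Abcg5, 0.078 for Scap and 0.034 for Dhcr7, and polysome RNA 0.21 for Stard4. Library totals gave -0.088 for Abca1 in total RNA and, in polysome RNA, -0.11 for Insig1, -0.070 for Soat2 and -0.053 for Scarb1. With limma-voom, Insig1 had 0.053 in total RNA and Stard4 had 0.0029 in polysome RNA. With 1 mouse left out, total RNA ranged from -0.41 to 0.19 for Sqle, -0.14 to 0.029 for Srebf2, -0.20 to 0.32 for Insig1, -0.24 to 0.070 for Stard4, -0.23 to 0.15 for Abca1, -0.29 to 0.032 for Abcg5, -0.20 to 0.042 for Soat2, -0.21 to 0.047 for Scap and -0.12 to 0.070 for Dhcr7. Polysome RNA ranged from -0.63 to 0.16 for Sqle, -0.12 to 0.055 for Srebf2, -0.073 to 0.39 for Insig1, -0.070 to 0.16 for Stard4 and -0.11 to 0.23 for Soat2.

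Counts over all genes also moved. In total RNA 4 genes were called by edgeR, against 93 over the 8 mice, 1 to 59 with a mouse left out (59 without mouse 9), 57 with DESeq2, 13 without a filter and 2 with library totals or a CPM above 1 in every library. In polysome RNA 2 were called, against 31 over the 8 mice, 0 to 17 with a mouse left out (17 without mouse 9), 267 with DESeq2, 296 with all libraries in 1 fit, 72 without a filter, 31 with the stricter filter and 0 with library totals. The interaction gave 1 gene, against 7 with DESeq2 and 0 with limma-voom, the stricter filter or the 8 mice. The causes were not tested.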
